A study of Mus musculus with 4 samples.

Results

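Peaks of trimethylated histone H3 lysine 4 (H3K4me3), a mark of active and poised promoters, were examined at 8 genes of tendon cells in mouse gastrocnemius, a calf muscle that ends in the Achilles tendon. The genes were listed by symbol (Scx, Mkx, Tnmd, Fmod, Thbs4, Comp, Kera and Tnc), and all 8 were found among 21755 protein-coding genes of GENCODE M21 (Y excluded). For each, peaks within 1000 bp of any transcription start site (TSS) and peaks over the gene body were taken from 4 deposited lists on mm10. The donors were B6CASTF1/J females, adult at 2 months of age, a strain of first-generation hybrids of a C57BL/6J and a CAST/EiJ parent. Pool E was biological replicate 1 and pool F biological replicate 2, and each pool combined 2 biosamples and was sequenced as 2 technical libraries with fragments of 200 to 600 bp. There was 1 tissue and 1 condition, with no treatment, so what could be compared was the genes with each other, the pools with each other, and the tendon cell genes with all other genes.

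Tendon joins muscle to bone and is made by fibroblasts called tenocytes, which lay down parallel collagen fibrils. Scx (scleraxis), a basic helix-loop-helix transcription factor, marks tendon progenitors, and Mkx (Mohawk), a homeobox transcription factor, acts in the maturation of tendon and the expression of its collagen. The other genes encode products of the mature tendon: Tnmd (tenomodulin), a membrane glycoprotein of tenocytes, Fmod (fibromodulin) and Kera (keratocan), small leucine-rich proteoglycans that bind collagen, Thbs4 and Comp, both thrombospondins, and Tnc (tenascin C), a large matrix glycoprotein of the myotendinous junction. Comp is also abundant in cartilage and Kera in the cornea. Calf muscle is mostly muscle fibre, and in such bulk tissue a mark carried by few cells and a weaker mark carried by many cells cannot be told apart.

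Each pool had its own list of pseudoreplicated peaks. Both pools combined had another of that type (the pooled list) and a list of replicated peaks (the replicated list). The 4 lists held between 39544 and 45270 peaks. Each peak carried a signal value given by the authors, whose scale was not stated, so that values describe and rank peaks within a list. The depth of the libraries is unknown. The muscle identity of the tissue was checked at 8 genes of skeletal muscle fibres, all of which had a peak at a TSS, led by Mylpf (signal value 58.8 in the replicated list), Actn3 (57.7) and Ckm (53.1). Sept1, on the same chromosome as Mylpf, had the same signal values in that list and both pools, and the same domain width (9478 bp). Which of these genes the Mylpf peak belongs to cannot be told apart. None of 4 hepatocyte genes (Ahsg, Alb, Apoa2 and Cps1) had a peak at a TSS. Of all protein-coding genes 69.3% had one, but of those with few CpG dinucleotides at the start, the class of all 4 hepatocyte genes and of 5 of the 8 muscle genes, 25.2%.

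RefSeq promoter sequences on GRCm38.p6 (250 bases before to 50 bases from the start site) were matched for 5 of the 8 genes. They are shown for the matrix gene with the highest signal value (Thbs4), for the one with the lowest (Kera) and for Tnmd, to show how their CpG content differed. Capitals mark CG dinucleotides.
Thbs4 promoter, chr13:92794769-92795068, minus strand: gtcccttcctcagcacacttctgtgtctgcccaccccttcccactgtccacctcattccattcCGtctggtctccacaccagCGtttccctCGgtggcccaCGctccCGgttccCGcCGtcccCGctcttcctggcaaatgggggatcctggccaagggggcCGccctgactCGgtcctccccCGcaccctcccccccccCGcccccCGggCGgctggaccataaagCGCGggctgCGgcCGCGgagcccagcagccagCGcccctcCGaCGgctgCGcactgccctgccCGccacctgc
Kera promoter, chr10:97606955-97607254, plus strand: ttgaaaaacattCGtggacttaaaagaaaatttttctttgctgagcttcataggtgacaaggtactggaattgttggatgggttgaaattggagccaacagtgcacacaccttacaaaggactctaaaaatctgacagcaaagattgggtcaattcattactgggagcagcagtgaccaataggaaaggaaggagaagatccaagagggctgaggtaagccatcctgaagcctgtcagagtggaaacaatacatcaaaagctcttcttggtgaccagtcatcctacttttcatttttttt
Tnmd promoter, chrX:133850758-133851057, plus strand: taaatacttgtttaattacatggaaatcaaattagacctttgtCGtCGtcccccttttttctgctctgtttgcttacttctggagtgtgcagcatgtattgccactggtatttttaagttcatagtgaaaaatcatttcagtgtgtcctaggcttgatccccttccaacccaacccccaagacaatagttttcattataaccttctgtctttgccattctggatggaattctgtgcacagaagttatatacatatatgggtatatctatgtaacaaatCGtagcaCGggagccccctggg

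The Thbs4 promoter held 24 CG dinucleotides at 72.0% GC, the Kera promoter 1 at 41.0% and the Tnmd promoter 4 at 40.0%. Of the promoters not printed, that of Fmod held 3 and the pair of Tnc promoters 10 and 16. The median over all 32851 promoters of the RefSeq table was 7 (interquartile range 3 to 20). The E-box CANNTG, the hexamer bound by basic helix-loop-helix factors, was searched on both strands (it reads the same on each). It lay in the promoters of Thbs4, Fmod and Tnc and in neither that of Kera nor that of Tnmd, and 72.3% of all promoters held it. Its form CAGATG, with its reverse complement CATCTG, occurred in the Fmod promoter only among these 5 genes, at position -189 from the start site, and in 17.2% of all promoters. The TATA box TATAAA, on either strand, was found in the promoters of Tnc only, 126 or 205 bases before the start site, and in 13.6% of all promoters. These matches describe letters in the searched windows and not binding.

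All 8 tendon cell genes had a peak within 1000 bp of a TSS in the replicated list, as did 69.3% of all protein-coding genes. All 8 also had one in the list of pool E (69.3% of all genes), in that of pool F (68.9%) and in the pooled list (69.5%). All 8 genes were thus marked in both pools, as were 68.6% of all genes. Peaks of the pools also overlapped each other at all 8, and the share of all genes with such an overlap was not computed. With 8 genes picked by hand these counts were not tested. Counting only peaks that covered a TSS, 6 of the 8 genes remained in the replicated list, without Fmod and Kera (67% of all genes), and within 2500 bp it was 8 (70.4%). The genes have 18 distinct TSSs, of which 14 had a peak within 1000 bp in the replicated list and 11 lay under a peak. The same share over the TSSs of all genes was not computed, and the percentages above count genes. The 4 TSSs without a peak were internal starts of Mkx, Thbs4, Comp and Tnc, between 6602 and 26290 bp downstream of the 5′ end of the gene.

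The transcription factor genes had higher signal values than every matrix gene. In the replicated list the signal value at a TSS was 42.4 for Mkx and 38.3 for Scx, against 23.0 for Thbs4, 13.2 for Comp, 10.04 for Tnc, 8.88 for Fmod, 3.67 for Tnmd and 2.46 for Kera. The medians were 40.4 for the 2 transcription factor genes, 9.46 for the 6 membrane and matrix genes and 45.2 for all 15067 marked protein-coding genes. In each list the lower of the transcription factor genes lay above the highest matrix gene: 43.4 for Scx against 25.9 for Thbs4 in pool E, and 34.7 for Scx against 20.9 for Thbs4 in pool F. With 2 genes against 6, all read from the same libraries, genes are not replicates and no test of the difference was made.

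**Figure D1:**
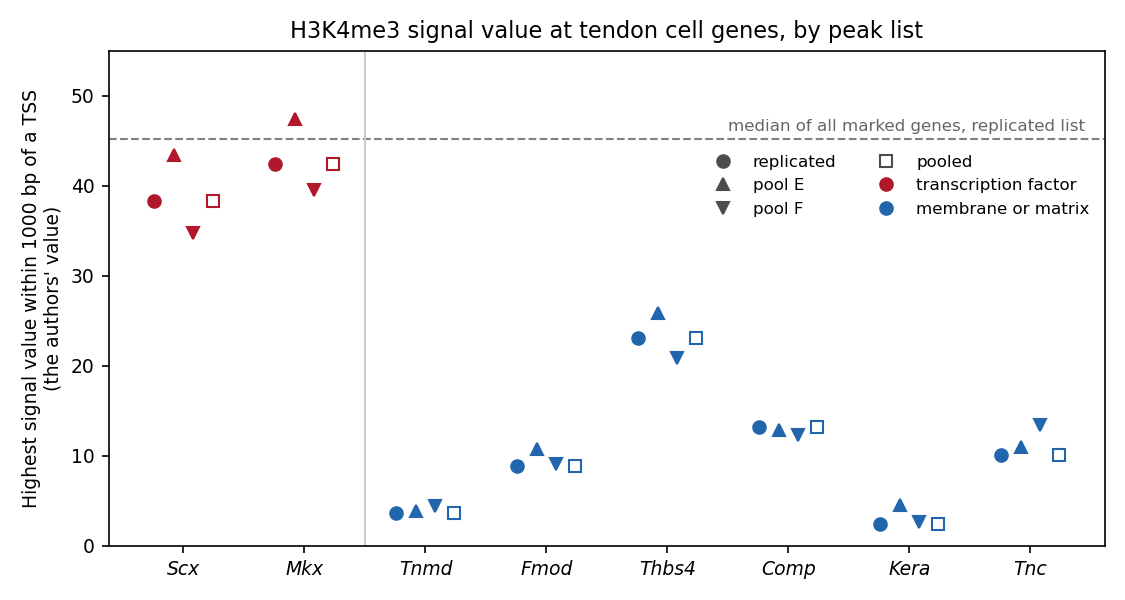
Highest signal value within 1000 bp of a TSS (vertical axis, the authors' value) for each tendon cell gene, with 1 symbol for each of the 4 peak lists and colours for transcription factor and matrix genes. Scx and Mkx lie between 34.7 and 47.4 in all lists, and the matrix genes between 2.46 and 25.9.

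Scx carried a wide domain that covered the whole gene, with a signal value above those of the matrix genes and below the median of all marked genes (45.2). Scx is 2007 bp long, on chromosome 15 from 76457452 to 76459458 on the plus strand, and lies inside Bop1, a ribosome biogenesis gene on the minus strand. The signal value was 38.3 in the replicated list, 43.4 in pool E, 34.7 in pool F and 38.3 in the pooled list. The main peak ran from 76457121 to 76460699 in the replicated list, from 331 bp upstream to 3247 bp downstream of the 5′ end of the gene, with a −log10 q-value of 214 and a summit 210 bp inside the gene. It covered 100% of the gene body in every list. In the pools the summit lay 221 bp (pool E) and 202 bp (pool F) from the 5′ end, 19 bp apart.

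A domain was formed from peaks with gaps of up to 1000 bp. At Scx it held 4 peaks over 6717 bp in the replicated list, 4 over 6744 bp in pool E and 2 over 6129 bp in pool F. Upstream of Scx, weak peaks with signal values of 5.50 and 4.03 lay next to or over internal TSSs of Bop1, the nearest of which is 1179 bp from an Scx TSS. The main Scx peak lay 848 bp from a Bop1 TSS. Downstream, a peak with a signal value of 12.6 began 3351 bp from the 5′ end of Scx and belonged to the domain, and another with 7.07 began at 6270 bp, outside it. The nearest Bop1 TSSs were 4530 and 7449 bp away. Peaks carry no strand, so which gene a peak between Scx and Bop1 belongs to cannot be told apart.

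Mkx had the highest signal value of the 8 genes, at a promoter shared with a divergent non-coding transcript. Mkx spans 70263 bp on chromosome 18, from 6934518 to 7004780 on the minus strand. The signal value was 42.4 in the replicated list, 47.4 in pool E, 39.5 in pool F and 42.4 in the pooled list. The strongest peak ran from 7003716 to 7006292 and covered 3 of the 4 Mkx TSSs together with the TSS of AC148004.1, a bidirectional-promoter lncRNA that starts 183 bp from Mkx on the plus strand. Its summit lay 39 bp from the start of AC148004.1 and 222 bp upstream of the 5′ end of Mkx. A second peak, from 7000977 to 7003622, had a signal value of 20.9 and covered exon 2, and lay 160 bp from the internal Mkx TSS at 7003782.

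The pools cut the Mkx domain differently. Pool E had a single peak of 6091 bp there, where pool F had separate peaks with signal values of 39.5 and 20.0 at the TSSs and a weaker one upstream (2.70). After joining, the domain measured 5697 bp in the replicated list, and 6091 and 5663 bp in pools E and F. All 5114 bp under the pool F peaks at the Mkx TSSs were also under the pool E peak, which was 84.0% of the pool E peak. The summits lay 350 bp apart, 204 bp upstream of the 5′ end of the gene in pool E and 146 bp downstream of it in pool F.

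Thbs4 was the most strongly marked matrix gene and the one with distal peaks. Thbs4 lies on chromosome 13 from 92751590 to 92794818 on the minus strand. Its TSS peak, from 92791028 to 92795188, had a signal value of 23.0 in the replicated list, and the values were 25.9 in pool E, 20.9 in pool F and 23.0 in the pooled list. It began 370 bp upstream of the TSS and ran 3790 bp into the gene, with its summit 127 bp inside. In pool F the same stretch was cut in separate peaks of 2607 and 1261 bp.

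Far from that promoter, a peak from 92753571 to 92755121 overlapped exons 19 and 20 of the 22 Thbs4 exons, with a signal value of 9.43 in the replicated list, 12.1 in pool E and 8.41 in pool F. Another, from 92751192 to 92751865, overlapped exon 22 and the 3′ end of the gene, with values of 8.86, 10.1 and 6.58 in the same lists. They began 39697 and 42953 bp downstream of the 5′ end of Thbs4 and lay 19853 and 23109 bp from its nearest TSS, an internal one without a peak. The nearest TSS of another gene, the pseudogene Gm5199, was 34209 and 31830 bp away. The signal value of 9.43 lay between those at the TSSs of Fmod (8.88) and Tnc (10.04) in the replicated list. In pool E the 12.1 of that peak lay above both (10.7 and 10.98), and in pool F its 8.41 lay below both (9.09 and 13.4).

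Comp, the other thrombospondin gene, had its summit inside the gene. Comp lies on chromosome 8 from 70373558 to 70382066 on the plus strand, with 4 TSSs. The signal value was 13.2 in the replicated list, 12.8 in pool E, 12.3 in pool F and 13.2 in the pooled list. The peak, from 70373249 to 70375487, covered the first 3 TSSs and exons 1 to 4 of 19, and had a −log10 q-value of 89.3. Its summit lay 962 bp downstream of the 5′ end in the replicated list, and 962 and 957 bp from it in pools E and F. A weaker peak with a signal value of 3.92 followed over exons 5 to 9. The pools cut that stretch differently: pool E had peaks of 282 and 954 bp there and pool F a single peak of 425 bp.

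Tnc carried a compact peak at the first of its TSSs. The gene spans 87231 bp on chromosome 4, from 63959785 to 64047015 on the minus strand. The signal value was 10.04 in the replicated list, 10.98 in pool E, 13.4 in pool F and 10.04 in the pooled list. The peak ran over 2446 bp from 64045123 to 64047568, and those of the pools over 2429 bp (pool E) and 2425 bp (pool F) shared 99.3% and 99.5% of their length. The summit was 69 bp inside the gene, and 63 and 91 bp in pools E and F. The internal TSS 26290 bp downstream had no peak. The antisense transcript 8030451A03Rik, which overlaps Tnc, had none within 1000 bp of its TSSs either.

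At the proteoglycan genes Fmod and Kera the first peak began downstream of the 5′ end of the gene. Main peaks of Scx, Thbs4, Comp, Tnc and Tnmd covered the 5′ end in the replicated list, but also ran further downstream than upstream of it. Fmod lies on chromosome 1 from 134037254 to 134048277 on the plus strand, and its signal value was 8.88 in the replicated list, 10.7 in pool E, 9.09 in pool F and 8.88 in the pooled list. The first peak began at 134037509, 255 bp downstream of the 5′ end of the gene and 13 bp past its second TSS. In pool E it began 261 bp downstream, and in pool F 182 bp, so that it covered the second TSS there. Together with peaks of 6.12 and 4.40 further in, it formed a domain of 7055 bp that ended 7309 bp from the 5′ end, and 62.3% of the gene body was covered. With peaks joined up to 1000 bp apart the Fmod domain was the widest of the 8, also in the pools (7072 and 7073 bp in E and F). Joined up to 3000 bp apart, Scx was wider (8697 bp), and with peaks not joined the Thbs4 peak (4161 bp) was wider than that of Fmod (3728 bp). Its summit lay 454 bp from the 5′ end in the replicated list, and 1376 and 1491 bp from it in pools E and F.

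Kera had the lowest signal value of the 8 in the replicated list and in pool F, while Tnmd was lower in pool E. Kera lies on chromosome 10 from 97606879 to 97613692 on the plus strand, and its signal value was 2.46 in the replicated list, 4.47 in pool E, 2.59 in pool F and 2.46 in the pooled list. The peak began 207 bp downstream of the GENCODE TSS (212 and 390 bp in pools E and F), with a −log10 q-value of 2.70 in the replicated list, 7.27 in pool E and 3.24 in pool F. A chain of 4 more peaks inside the gene had signal values between 2.91 and 3.93, and the highest of them lay over exon 2, 1780 bp from the TSS. Its 3.93 was above the 2.46 at the TSS, as was 3.80 above 2.59 in pool F, but not in pool E (4.29 against 4.47). The RefSeq start of Kera lies 326 bp downstream of the GENCODE one, and the peak covered it in the replicated list and in pool E and began 64 bp past it in pool F. The domain was 3975 bp wide in the replicated list and 3481 bp in pool E, but 1713 bp in pool F, where the last peak lay too far from the others to be joined.

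Tnmd, a marker of mature tenocytes, had a single weak peak in the replicated list. Tnmd lies on chromosome X from 133850980 to 133865577 on the plus strand, with 1 TSS. The signal value was 3.67 in the replicated list, 3.86 in pool E, 4.40 in pool F and 3.67 in the pooled list. The peak covered 962 bp from 133850710 to 133851671, with its summit 267 bp inside the gene and a −log10 q-value of 4.77. The overlap between pools was the smallest of the 8 genes: peaks within 1000 bp of the TSS shared 701 bp, 54.5% of those in pool E and 54.6% of those in pool F. In pool E the strongest peak began 859 bp downstream of the TSS, and a weaker one (3.26) began 22 bp downstream and covered the RefSeq start, which lies 28 bp downstream of the GENCODE one.

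**Figure D2:**
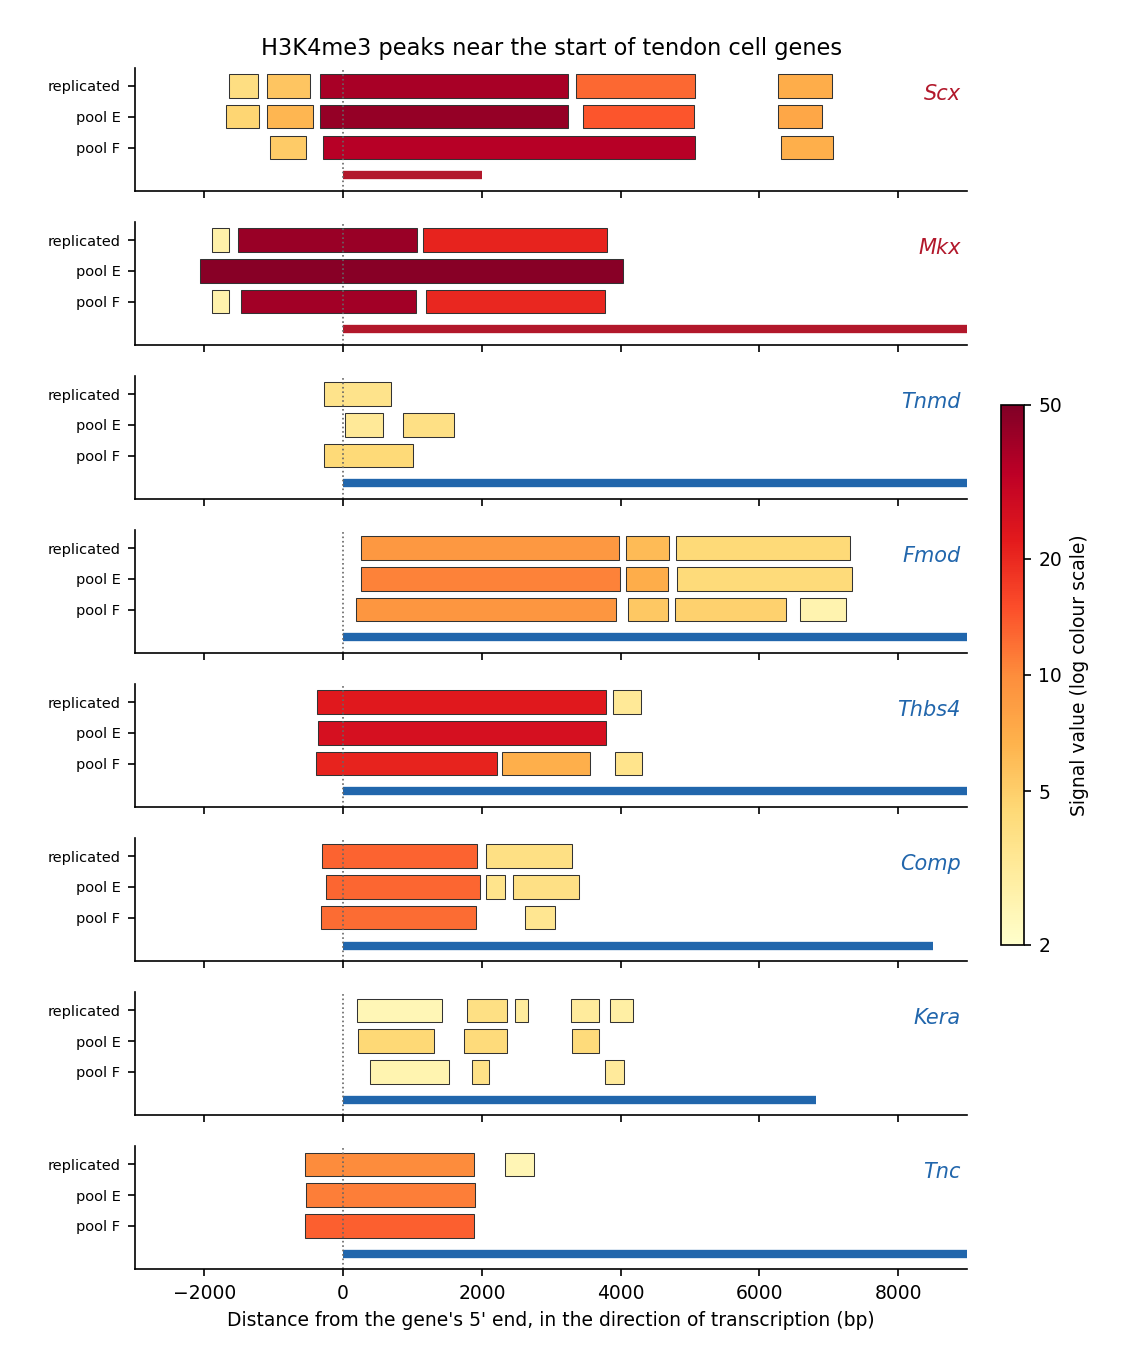
Peaks of the replicated list, pool E and pool F from 3000 bp upstream to 9000 bp downstream of the 5′ end of each gene (horizontal axis, bp, in the direction of transcription). Box colour gives the signal value on a log scale and the bar below the boxes the gene, drawn up to 9000 bp. Boxes of Scx and Mkx are dark and span the start, while those of Fmod and Kera begin downstream of it.

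In the replicated list most of the matrix genes combined low signal values with domains wider than the median of all marked genes, which held less well in the pools. Domain widths in the replicated list were 6717 bp for Scx and 5697 bp for Mkx, against 7055 bp for Fmod, 4670 bp for Thbs4, 3975 bp for Kera, 3603 bp for Comp, 3302 bp for Tnc and 962 bp for Tnmd. The Tnmd domain measured 1572 bp in pool E, 1283 bp in pool F and 1830 bp in the pooled list, and its width percentile was 7.02 in the replicated and 28.6 in the pooled list. The median over all marked genes was 2400 bp, and 7 of the 8 genes, all but Tnmd, were wider. In pool E Tnc and Tnmd and in pool F Kera and Tnmd were narrower than the median of all marked genes (2451.5 and 2314 bp). By rank among all marked protein-coding genes of that list, the transcription factor genes stood at percentiles 35.4 (Scx) and 43.2 (Mkx) for signal value and 94.0 and 91.0 for domain width. Fmod stood at percentile 6.67 for signal value and 94.7 for width, Kera at 0.0697 and 80.1, Comp at 9.64 and 75.8, and Thbs4 at 16.4 and 85.7. Tnc stood at 7.60 and 71.3, with a domain that joined a weak peak called in neither pool's own list. In pools E and F its domain was 2429 and 2425 bp wide, at width percentiles 49.3 and 53.6.

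These low values were also low among genes with a domain of like width. Those genes were not matched for CpG content, and ranks within a CpG class are given further below. Of 424 other genes with a domain within 10% of the width at Fmod, the median signal value was 48.1, and Fmod stood at percentile 0.943 among them. Kera, at 2.46, had a lower value than all 1216 genes of like width (median 50.2) in the replicated list. Both of its values moved with the pool, since the signal value was 4.47 in pool E and the domain 1713 bp wide in pool F, where its width percentile was 26.3 in place of 80.1. Comp stood at percentile 2.17, Tnc at 1.20, Tnmd at 3.15 and Thbs4 at 6.40 among genes of like width, and Scx and Mkx at 28.1 and 31.2. Widths rest on joining: as single peaks the transcription factor and matrix genes had median widths of 3112.5 and 2342.5 bp.

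**Figure D3:**
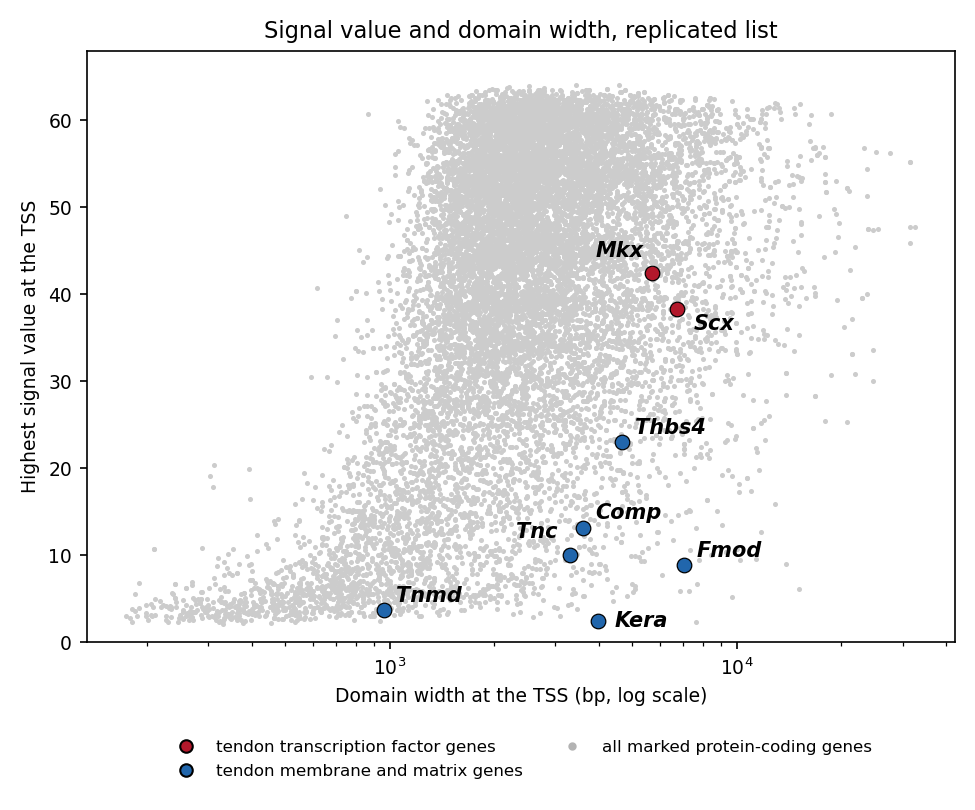
Highest signal value at a TSS (vertical axis) against domain width (horizontal axis, bp, log scale) in the replicated list, for the tendon cell genes and for all 15067 marked protein-coding genes (grey). Thbs4, Comp, Tnc, Fmod and Kera lie below most genes of their width, and Scx and Mkx inside the main cloud.

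The genes differed in the CpG content of their start sites. Each gene was put in a class by the observed over expected CpG ratio in windows of 1000 bp centred on its TSSs, where the high class needed a ratio of at least 0.75 and 55% GC in a window, and the low class ratios under 0.48 in all windows. Scx (highest ratio 0.704), Mkx (0.697), Thbs4 (0.567) and Tnc (0.496) were intermediate, Comp was high, and Tnmd (0.264), Fmod (0.243) and Kera (0.121) were low. Comp was high by its internal TSS at 70375038 alone, with a ratio of 0.751, while the ratio at its 5′ end was 0.524. A peak at a TSS was present at 99.3% of high, 93.9% of intermediate and 25.2% of low CpG genes.

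Within their own class the transcription factor genes ranked below the median and the matrix genes lower still. Among the 6164 marked intermediate genes, whose median signal value was 43.6 (interquartile range 31.1 to 52.8), Mkx stood at percentile 47.0 and Scx at 38.3, against 15.3 for Thbs4 and 5.70 for Tnc. Among the 2106 marked low CpG genes the median was 18.5 (interquartile range 7.26 to 34.6), and Fmod stood at percentile 29.9, Tnmd at 5.75 and Kera at 0.309. Comp stood at percentile 1.95 of the high class. All 6 matrix genes lay below the median of their class in this list, as did Scx and Mkx by a smaller margin. In pool E Mkx stood at percentile 50.2 of its class.

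**Figure D4:**
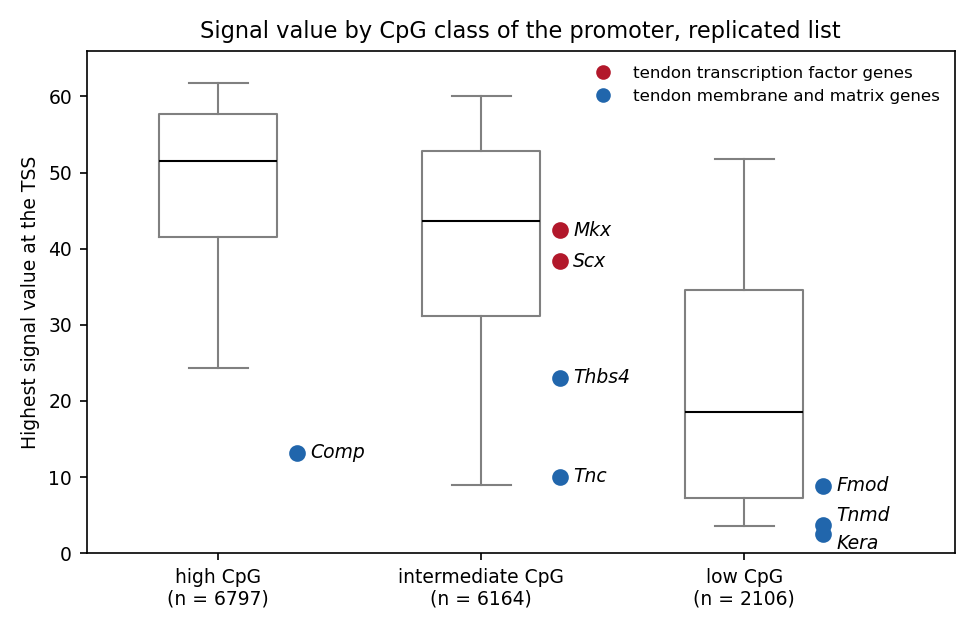
Highest signal value at a TSS (vertical axis) by CpG class of the gene (horizontal axis) in the replicated list. Boxes show the median and interquartile range of all marked genes of a class, with whiskers from the 5th to the 95th percentile, and points the tendon cell genes. Comp and Kera lie below the whiskers of their classes, and Tnc and Tnmd close to the lower ends of theirs.

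Away from their TSSs, 5 of the 8 genes had gene-body peaks in the replicated list: Kera with 4, Thbs4 with 3, Fmod with 2, and Mkx and Tnc with 1 each. Of all protein-coding genes 27.7% had such a peak, and of the 17294 genes within the same range of length 23.5% did. The numbers were 4 of 8 genes in pool E (27.8% of all genes), 5 in pool F (26.5%) and 5 in the pooled list (29.1%). In pool F the gene besides Kera, Thbs4, Fmod and Mkx was Comp and not Tnc. The Mkx peak, from 6944427 to 6944823, had a signal value of 3.14 in the replicated list, 3.49 in pool E and 3.14 in pool F, and lay 48165 bp from the nearest Mkx TSS and 7806 bp from that of AC148004.2, an overlapping transcript on the same strand. The Tnc peak, with a signal value of 2.49, was called in neither pool's own list. Of the 11 gene-body peaks those of Thbs4 at its 3′ end had the highest signal values, and the peaks of Fmod and Kera continued the row of peaks that began near the start.

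Between the pools, the distance between summits at the TSSs differed from gene to gene. Summits of the strongest TSS peaks lay 5 bp apart at Comp, 19 bp at Scx, 28 bp at Tnc and 41 bp at Thbs4. They lay 115 bp apart at Fmod, 185 bp at Kera, 306 bp at Tnmd and 350 bp at Mkx. Such distances were not computed for all marked genes, so whether these are usual is not known. The order of signal values was the same at its top, with Mkx highest, then Scx, then Thbs4 in both pools. Lower down it differed: Comp, Tnc, Fmod, Kera and Tnmd followed in pool E, and Tnc, Comp, Fmod, Tnmd and Kera in pool F. Kera was at 4.47 in pool E and 2.59 in pool F, and Tnmd at 3.86 and 4.40. With 1 list for each pool, these neighbours in the order cannot be separated from the spread between pools.

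The wider tendon programme was read in 6 lists of 62 genes, of which 58 had a peak at a TSS (69.3% of all protein-coding genes). Of the 62 genes 16 were in the high, 18 in the intermediate and 28 in the low CpG class, in which 99.3%, 93.9% and 25.2% of all genes were marked. Regulators of tendon and its junction with muscle were all marked (11 of 11, median signal value 44.0) and all in the high or intermediate class, where nearly every gene is marked, led by Foxp1 (59.2) and the ETS factor gene Etv5 (56.4). Of 13 genes of transforming growth factor beta and bone morphogenetic protein signalling 12 were marked (median 47.4), led by the receptor genes Tgfbr2 (61.5) and Tgfbr1 (60.4) and the effector gene Smad3 (57.6). The ligand gene Gdf5 was unmarked. The collagen genes were all marked (10 of 10, median 32.6), led by Col5a1 (54.7), Col12a1 (39.3) and Col1a1 (35.3).

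Small leucine-rich proteoglycan genes other than Fmod and Kera had signal values below the median of all marked genes (45.2), as those 2 did. Of 9 genes 8 were marked, with a median signal value of 11.5, led by Prelp (26.6), Bgn (17.6) and Dcn (17.3). Epyc, a neighbour of Kera in the proteoglycan cluster of chromosome 10, was unmarked. Their domains were wide, with a median of 5006 bp, and 8 of the 9 genes were in the low CpG class and 1 in the intermediate. Among thrombospondin and tenascin genes other than Thbs4, Comp and Tnc, 4 of 6 were marked: Thbs3 (54.0), Thbs1 (36.0), Thbs2 (15.5) and Tnxb (5.83), while Tnn and Tnr, tenascins of bone and of the nervous system, were unmarked. Tnxb is added here to complete the list. Other tendon matrix genes were all marked (13 of 13, median 20.7), led by Fn1 (48.0), Ccn2 (43.5) and the collagen cross-linking gene Lox (38.3).

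The regulator list held 7 high and 4 intermediate CpG genes, and the other matrix list 4 intermediate and 9 low CpG genes. The list with the lower median signal value thus held more low CpG genes. Single genes departed from this, such as Thbs3, a low CpG gene at 54.0 that was singled out after its value was seen. Whether the peak taken for Thbs3 belongs to a neighbouring gene was not examined. The part of CpG content in the difference between the lists was not tested.

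Genes of tissues that meet tendon were marked in part. Of 8 cartilage genes 4 were marked, with signal values of 22.1 at Matn3, 21.3 at Hapln1 and 15.8 at Col2a1, and Col10a1, Col9a1, Matn1 and Snorc were unmarked. Of 8 bone genes 2 were marked, the transcription factor gene Runx2 (48.5) and the phosphatase gene Alpl (20.7). The bone matrix genes Bglap and Bglap2 (which are near-identical copies of each other), Dmp1 and Ibsp, with Phex and Sp7, were unmarked. All 4 unmarked cartilage genes and all 6 unmarked bone genes were in the low CpG class, in which 25.2% of all genes were marked, and every gene of these lists in the other classes was marked. All 6 fibroblast and fibro-adipogenic progenitor genes were marked (median 31.4), led by Cd34 (41.0), Gsn (39.2) and Pdgfra (34.7). The share of such cells in the marks at Comp, Tnc and Fmod was not tested.

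**Figure D5:**
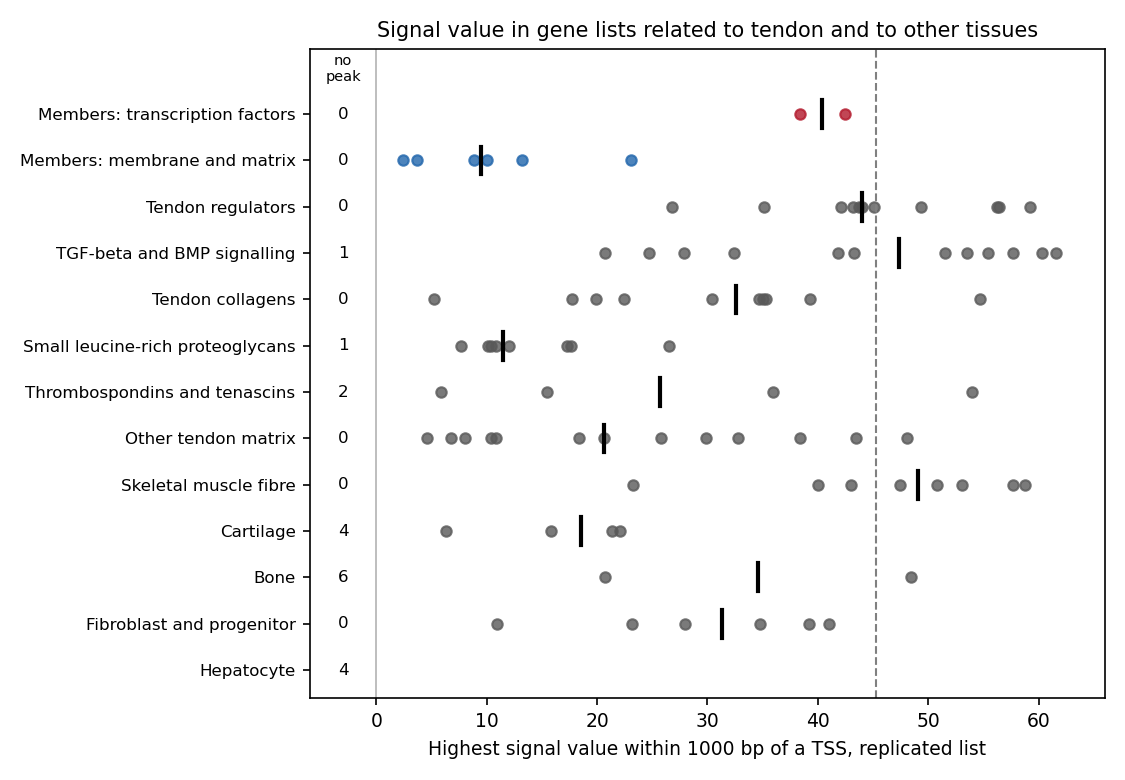
Highest signal value within 1000 bp of a TSS in the replicated list (horizontal axis) for the tendon cell genes and for lists of related genes (rows). Each point is a marked gene, black bars are medians over marked genes, numbers at the left count genes with no peak, and the dashed line is the median of all marked genes (45.2). Tendon transcription factor genes and regulators lie near that line, and matrix genes and small leucine-rich proteoglycan genes to its left.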

How the data were processed

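H3K4me3 ChIP-seq libraries of gastrocnemius were given as 4 narrowPeak lists on mm10. Per the deposited text files, each list was made from filtered alignments (those of 1 pool or of both), with a further input that is not described. The same alignment is named for both technical libraries of a pool, and the lists hold no values for single libraries. Aligner and peak caller: not given in the sources used here. In the deposited files the signal value of each peak is the authors' own, and the deposited −log10 q-value and summit offset were used as given. The lists hold no read counts, so depth is unknown and no interval was computed.

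Genes and TSSs came from GENCODE M21, and CpG content from GRCm38.p6, the build of mm10, read with Python 3.11.15. A gene's signal value was that of its highest peak within 1000 bp of any TSS, and its domain width that of its widest domain there. Percentiles are the percent of marked genes with a lower value, with ties shared. The calculations were tested on simulated peaks. No test was made, because there are no values for single libraries and no groups. The members and lists were chosen with earlier results of these data known. Named were all 8 genes, neighbours with a TSS within 1000 bp of their domains or nearest to a gene-body peak, and, for each related list, up to 3 marked genes with the highest signal values and all unmarked genes, except 1 gene that is not reported here. Alternatives were other TSS windows, TSS sets, lists, q-value limits, joining distances and overlaps. Promoter sequences were credited to RefSeq, and those of Scx, Mkx and Comp are not printed.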

Additional observations from a re-analysis of the deposited data

How the results depend on the processing

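In all 9 alternatives that changed TSS windows, lists, TSS sets or q-value limits, both transcription factor genes kept a higher signal value than every matrix gene. Only the lists of pool E (43.4 against 25.9) and pool F (34.7 against 20.9) changed the lowest transcription factor and highest matrix value. In the others these stayed at 38.3 and 23.0, because the same peaks remained the highest, so they add little to this order. At a TSS window of 0 bp 6 genes were marked, as 67% of all genes were, and Fmod and Kera were lost. With a −log10 q-value of at least 5 it was 6, without Tnmd and Kera, and 3 in place of 5 genes had a gene-body peak. The shares of all genes at that limit were not computed, so these losses cannot be called particular to the tendon cell genes. With an overlap of at least 50% of both peaks, 6 genes were shared by the pools, without Mkx and Tnmd. The share of all genes at that overlap was not computed. At Mkx all 5114 bp under the pool F peaks at the TSSs lay under the single pool E peak. The median signal value of matrix genes was 9.46, against 11.6 at a window of 0 bp or a −log10 q-value of at least 5 (2 genes fewer in each), and 10.7 to 10.8 without replicate 1 or 2. The median width of transcription factor genes was 6207 bp, but 3112.5 bp with peaks not joined and 7197 bp when joined up to 3000 bp apart. That of matrix genes was 3789 bp, but 2342.5 bp with peaks not joined and 2897.5 to 3564 bp without replicate 1 or 2. Their difference of 2418 bp was 2754.5 bp at a window of 0 bp, 2134.5 bp at a −log10 q-value of at least 5, 770 bp with peaks not joined, 3408 bp joined up to 3000 bp apart and 2853.5 to 2998.5 bp without replicate 1 or 2. At a window of 2500 bp 1 hepatocyte gene was marked. The other 162 recomputed counts and medians moved less: counts by at most 1.5 times and medians by less than the SD between pools. Of the recomputed signal values, widths and percentiles of single genes, 42 moved by at least that SD and 126 did not. That SD rests on 2 pools, which are also the alternatives without replicate 1 or 2, so it is a rough measure. No paired analysis was possible because no list holds values for single libraries. Unknown depth limits what an unmarked gene or a weak peak can show.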
